A study of Homo sapiens with 12 samples.

Results

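The 5 genes described here encode inhibitors of metalloproteinases, the tissue inhibitors TIMP1, TIMP2, TIMP3 and TIMP4 and the membrane-anchored inhibitor RECK. They were taken by gene symbol from a table of reads counted per gene, and all 5 were present among its 23368 distinct symbols. The rule that names them uses no measured value, but it was set with earlier results of these data known. The counts come from 3D cultures of 2 established breast cancer cell lines, MDA-MB-231, an ER- line of the basal subtype grown from a pleural effusion, and T47D, an ER+ line of the luminal A subtype. Single cells were encapsulated in a synthetic hydrogel of poly(ethylene glycol) held together by a peptide crosslink that cells can degrade, and the matrix carried either GFOGER, a peptide that mimics collagen, or IKVAV, a peptide that mimics laminin. RNA was collected on day 3, after the gels had been dissolved with collagenase, and 3 gels of the same composition were pooled for each RNA replicate. The MDA-MB-231 line gave 3 libraries from GFOGER matrices and 2 from IKVAV matrices, and the T47D line gave 3 from each. The third MDA-MB-231 replicate with IKVAV, which was removed in the study's own quality control, was not analysed here. All 4 conditions shared the polymer, the crosslink, serum-containing medium and the release with collagenase. All were also soft gels of the lower matrix density used in the study, so the values hold for that density only. Each subtype was represented by a single cell line, so a difference between the cell lines cannot be told apart from a difference between the subtypes.

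The metalloproteinases are zinc-dependent enzymes that cut collagen, laminin and other matrix proteins and shed proteins from the cell surface. TIMPs are small secreted proteins that block these enzymes by inserting their N-terminal end into the active site. The family members differ in range: TIMP1 acts on most secreted matrix metalloproteinases and weakly on the membrane-type enzymes, TIMP2 blocks membrane-type enzymes and also takes part in the activation of pro-MMP2 at the cell surface, TIMP3 stays bound to the matrix and reaches ADAM and ADAMTS proteases as well, and TIMP4 is a close relative with a narrow tissue range. RECK is anchored to the membrane by a lipid, inhibits MMP9, MMP14 and ADAM10, and is also part of a receptor complex for WNT7 ligands. In breast tissue these inhibitors oppose the proteases with which tumor cells cross collagen-rich and laminin-rich matrix.

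Library totals ranged from 14337035 to 18449108 reads counted on genes. The cell line labels were checked against marker genes. The mesenchymal gene VIM had 22875 to 42454 counts per MDA-MB-231 library and 61 to 87 per T47D library, while the estrogen receptor gene ESR1 had 8 to 14 and 4295 to 5140. Among 3 markers of other cell types, the leukocyte gene PTPRC had 1 to 10 counts in the MDA-MB-231 line and 0 to 2 in the T47D line, the endothelial gene PECAM1 144 to 237 and 0, and the fibroblast and pericyte gene PDGFRB 70 to 230 and 0 to 1. The RPKM values deposited beside the counts imply a library total of 19898878 to 22840524 in 6 libraries and of 5191201 to 5774966 in the other 5, which are MDA-MB-231 IKVAV replicate 1, all T47D GFOGER replicates and T47D IKVAV replicate 3. The comparisons of the mimics are also given within this division. Between the GFOGER libraries of the cell lines the division coincides with the cell line, and the 2 cannot be told apart there. Levels are given as cpm, counts scaled to a common library size after TMM normalization (a correction for differences in library composition), and as RPKM, the same value divided by gene length in kilobases, wherever 1 gene is compared with another.

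In hg19, the build of the table, TIMP1 lies on the plus strand of chromosome X from 47441690 to 47446190, TIMP2 on the minus strand of chromosome 17 from 76849059 to 76921472, TIMP3 on the plus strand of chromosome 22 from 33196802 to 33259028, TIMP4 on the minus strand of chromosome 3 from 12194568 to 12200851 and RECK on the plus strand of chromosome 9 from 36036910 to 36124452. The canonical transcripts have 6 exons for TIMP1, 5 each for TIMP2, TIMP3 and TIMP4, and 21 for RECK. Of the TIMP genes, 3 lie within introns of synapsin genes, on the opposite strand: TIMP1 in intron 5 of SYN1, TIMP3 in intron 6 of SYN3 and TIMP4 in intron 8 of SYN2. The hosts SYN1 and SYN3 had few reads in MDA-MB-231 cells, where TIMP1 and TIMP3 had many. TIMP4 itself had only 15 to 54 counts per MDA-MB-231 library. SYN1 had 4 to 12 counts per MDA-MB-231 library and 100 to 207 per T47D library, SYN3 had 0 to 6 and 0 to 1, and SYN2 had 2 to 6 and 0. TIMP2 overlaps LOC100653515, which had 26 to 75 counts per MDA-MB-231 library and 1 to 10 per T47D library, and an antisense RNA shares 367 bases of its exons. TIMP4 shares 170 exon bases with SYN2. The library kit kept the strand, but the strand setting of the counting is not given in the sources used here, so reads from these shared bases cannot be assigned to a strand.

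Promoter sequences were found for 4 of the 5 genes in a RefSeq table of GRCh38.p14. The 250 bases before the gene start are shown for the 3 genes that passed the test between the mimics in MDA-MB-231 cells. TIMP1 and TIMP3 went in the same direction and TIMP4 in the other. The call of TIMP4 rested on 15 to 54 counts per library and was lost in 8 of 15 alternative settings. The strand shown is that of the gene, 5′ to 3′. Capitals mark matches, on either strand, to the GC box GGGCGG, to the AP-1 variant TGAGTAA and to the TATA box TATAA. The windows are chrX:47582186-47582435 on the plus strand for TIMP1, chr22:32801455-32801704 on the plus strand for TIMP3 and chr3:12158913-12159162 on the minus strand for TIMP4.
TIMP1: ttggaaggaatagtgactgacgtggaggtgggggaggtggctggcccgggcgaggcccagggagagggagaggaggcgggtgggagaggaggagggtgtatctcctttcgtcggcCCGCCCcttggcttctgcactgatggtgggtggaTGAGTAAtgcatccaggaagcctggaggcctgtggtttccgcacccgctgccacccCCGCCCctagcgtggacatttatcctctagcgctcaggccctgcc
TIMP3: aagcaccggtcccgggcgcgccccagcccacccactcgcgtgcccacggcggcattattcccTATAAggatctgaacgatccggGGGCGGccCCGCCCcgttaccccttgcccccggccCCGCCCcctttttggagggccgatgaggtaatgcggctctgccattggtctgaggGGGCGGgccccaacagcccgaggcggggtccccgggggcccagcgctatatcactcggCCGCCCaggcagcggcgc
TIMP4: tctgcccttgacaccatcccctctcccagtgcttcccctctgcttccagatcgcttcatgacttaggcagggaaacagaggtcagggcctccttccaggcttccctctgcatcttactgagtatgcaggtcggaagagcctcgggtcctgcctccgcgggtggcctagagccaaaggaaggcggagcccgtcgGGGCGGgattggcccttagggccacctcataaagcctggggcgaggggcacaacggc
The TIMP1 window held 2 GC boxes and 12 CpG dinucleotides at 64.8% GC, with TGAGTAA 101 bases before the start. The TIMP3 window was the richest in GC of the 4, with 72.4% GC, 26 CpG, 5 GC boxes and a TATAA 188 bases before the start, and 14.7% of all promoters in the table had a higher GC content. The TIMP4 window held 1 GC box and 11 CpG at 62.8% GC, and the RECK window (chr9:36036663-36036912, plus strand, not shown) 3 GC boxes and 12 CpG at 63.6% GC. Over all 35116 promoters of the same length the medians were 58% GC and 11 CpG. The consensus AP-1 site TGACTCA was in 0 of the 4 windows and in 4.2% of all promoters, TGAGTAA in 2.21%, GGGCGG in 42.6% and TATAA in 18.9%. All motifs but TGACTCA were picked after these sequences had been read, and a match describes letters only.

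**Figure D1:**
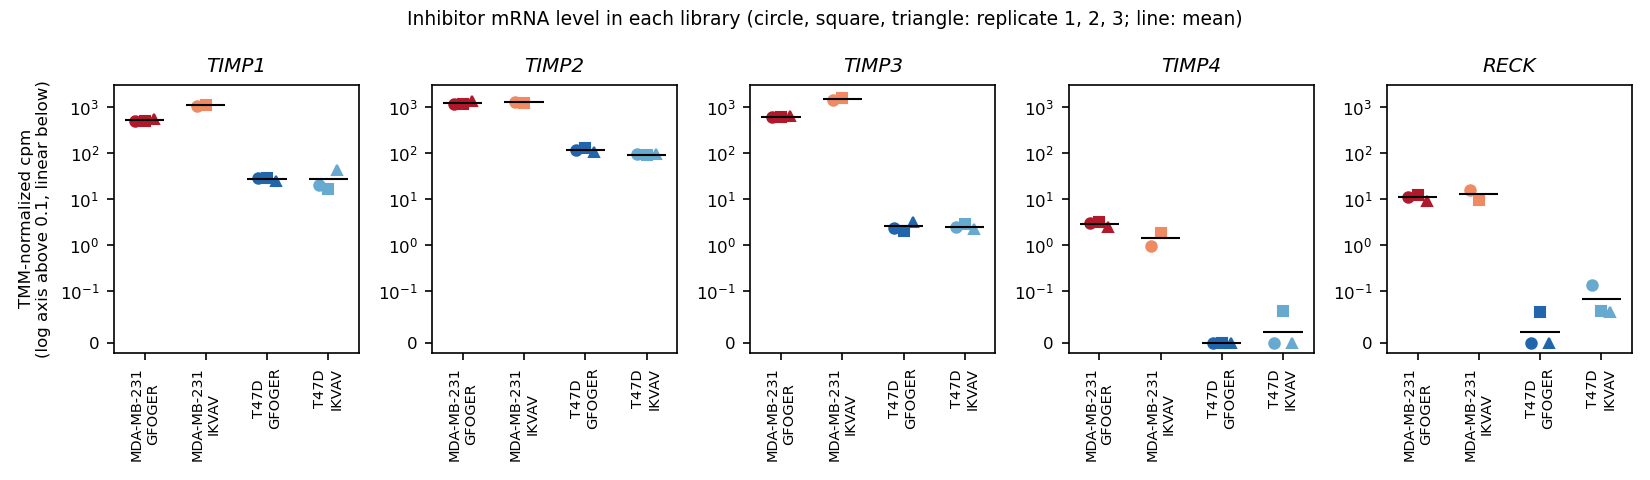
TMM-normalized cpm of TIMP1, TIMP2, TIMP3, TIMP4 and RECK in each of the 11 libraries, on a vertical axis that is logarithmic above 0.1 cpm and linear below. Circles, squares and triangles are replicates 1, 2 and 3 and lines are condition means. Every MDA-MB-231 library sits above every T47D library for TIMP1, TIMP2 and TIMP3. Of all genes tested, 46.3% were differentially expressed between the cell lines. TIMP4 and RECK lie apart as well, but they passed the filter on low counts only through the MDA-MB-231 libraries. Within the MDA-MB-231 line the mean of TIMP1 goes from 512 cpm with GFOGER to 1058 cpm with IKVAV and that of TIMP3 from 608 to 1441 cpm.

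MDA-MB-231 cells with GFOGER held less TIMP1 and TIMP3 mRNA and more TIMP4 mRNA than the same cells with IKVAV, and the levels of TIMP2 and RECK did not pass the test. Genes counted as differentially expressed had an adjusted p below 0.05, from the quasi-likelihood test of edgeR with Benjamini-Hochberg adjustment over all genes tested, and a fold change over 2 in either direction. By this rule 3 of the 5 inhibitors were differentially expressed, 1 higher and 2 lower with GFOGER, where 9.57% of the 14090 genes tested were, 3.12% higher and 6.45% lower. The median absolute log2 fold change of all genes tested was 0.337. In bulk RNA such as this, fewer cells of a type and less RNA per cell cannot be told apart.

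TIMP1, the broad inhibitor of secreted metalloproteinases, was at 493, 497 and 545 cpm in the 3 GFOGER libraries of MDA-MB-231 cells and at 1053 and 1063 cpm in the IKVAV libraries. The highest GFOGER library lay far below the lowest IKVAV library. With GFOGER TIMP1 was 2.08-fold lower, a log2 fold change of -1.06 (SE 0.0833, adjusted p = 5.43e-08, edgeR's quasi-likelihood test). TIMP3, the matrix-bound inhibitor, was at 599.6, 588 and 638 cpm with GFOGER and at 1384 and 1498 cpm with IKVAV, again without overlap. It was 2.38-fold lower with GFOGER (log2 fold change -1.25, SE 0.0831, adjusted p = 7.54e-09), and 6.75% of the genes tested had a larger absolute change, against 9.75% for TIMP1. With the 2-fold threshold placed inside the test, TIMP3 passed (adjusted p = 0.0333) and TIMP1 did not.

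TIMP4, the least abundant member, moved the other way on few reads. Its counts were 54, 50 and 44 with GFOGER and 15 and 31 with IKVAV, or 3.09, 3.09 and 2.51 cpm against 0.973 and 1.87 cpm. The GFOGER libraries all lay above the IKVAV libraries, with 2.51 against 1.87 cpm at the closest. The log2 fold change was 1.00 (SE 0.345, adjusted p = 0.0269), only just past the 2-fold threshold. Without IKVAV replicate 1 it was 0.62 (adjusted p = 0.228), and without GFOGER replicate 1 or 2 it was 0.96 and 0.95 (adjusted p = 0.0534 and 0.0506).

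TIMP2, which blocks membrane-type enzymes, was at 1150, 1124 and 1305 cpm with GFOGER and at 1269 and 1217 cpm with IKVAV, so the IKVAV libraries fell inside the range of the GFOGER libraries. Its log2 fold change was -0.07 (SE 0.0866, adjusted p = 0.558), and 88.3% of the genes tested had a larger absolute change. Without GFOGER replicate 3 the value was -0.13 (adjusted p = 0.00190), still far under 2-fold. RECK was at 10.9, 12.4 and 9.06 cpm with GFOGER and at 15.4 and 9.59 cpm with IKVAV, with a log2 fold change of -0.22 (SE 0.201, adjusted p = 0.404). Its 2 IKVAV libraries lay above and within the GFOGER range, and without IKVAV replicate 1 the value was 0.16.

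IKVAV replicate 1 is the MDA-MB-231 library with the lower implied RPKM total. With this division as a term in the fit, which sets the GFOGER libraries against IKVAV replicate 2, the log2 fold change was -1.07 for TIMP1 (adjusted p = 2.51e-05), -1.31 for TIMP3 (adjusted p = 2.63e-06), 0.62 for TIMP4 (adjusted p = 0.251) and 0.15 for RECK (adjusted p = 0.659). In this fit the lone IKVAV library is assumed to vary like the others. Of the markers of other cell types, PECAM1 was at 8.92 ± 0.699 cpm in GFOGER matrices (SD, n = 3) and at 14.4 ± 0.206 cpm in IKVAV matrices (SD, n = 2), and PDGFRB at 4.83 ± 0.72 and 11.7 ± 3.07 cpm. The summed level of the 3 markers was 12.3 to 15.4 cpm with GFOGER and 24.3 to 28.2 cpm with IKVAV, with PTPRC near 0. Its part in the difference of TIMP1, TIMP3 and TIMP4 was not tested.

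In T47D cells no inhibitor passed the same test between GFOGER and IKVAV. TIMP1, TIMP2 and TIMP3 had enough reads to be tested, and 0 of these 3 were differentially expressed by edgeR's quasi-likelihood test or by DESeq2, where 0.0293% of the 13639 genes tested were, which is 4 genes. At an unadjusted p below 0.05, 1 of the 3 passed, TIMP2, against 11.2% of all genes.

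TIMP2 was at 114, 125 and 105 cpm in T47D cells with GFOGER and at 92.6, 87.9 and 92.5 cpm with IKVAV. All GFOGER libraries lay above all IKVAV libraries. The log2 fold change was 0.33 (SE 0.0860, unadjusted p = 0.00141, adjusted p = 0.175), and without T47D IKVAV replicate 3 it was 0.35 with an adjusted p of 0.0128, still under the 2-fold threshold. TIMP1 was at 28.7, 29.1 and 24.1 cpm with GFOGER and at 20.2, 16.1 and 43.0 cpm with IKVAV. IKVAV replicate 3 lay above every GFOGER library and the other IKVAV replicates lay below them, and the log2 fold change over all libraries was 0.04 (SE 0.371, adjusted p = 0.982). Without that replicate it was 0.59 (adjusted p = 0.00430), and with the division by implied RPKM total as a term, where the mimics are compared through IKVAV replicate 3 alone, which is then assumed to vary like the other libraries, it was -0.65 (adjusted p = 0.0101). The response of TIMP1 in T47D cells therefore rests on whether this library is included. Without it, the T47D GFOGER libraries all have the lower implied RPKM total and the IKVAV libraries the higher. The mimic then coincides with the division, for TIMP2 as for TIMP1, and the 2 cannot be told apart. TIMP3 was low throughout, at 2.39, 2.02 and 3.19 cpm with GFOGER and 2.44, 2.93 and 2.20 cpm with IKVAV, and its libraries overlapped (log2 fold change 0.01, SE 0.254, adjusted p = 0.995).

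TIMP4 and RECK were at the limit of detection in T47D cells and were not tested there. TIMP4 had 0 counts in 5 of the 6 T47D libraries and 1 count in IKVAV replicate 2, and RECK had 0, 1 and 0 counts with GFOGER and 2, 1 and 1 with IKVAV. A count of 0 allows up to 3 counts, which is 0.171 to 0.203 cpm in the T47D libraries, and this limit covers counting error only.

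**Figure D2:**
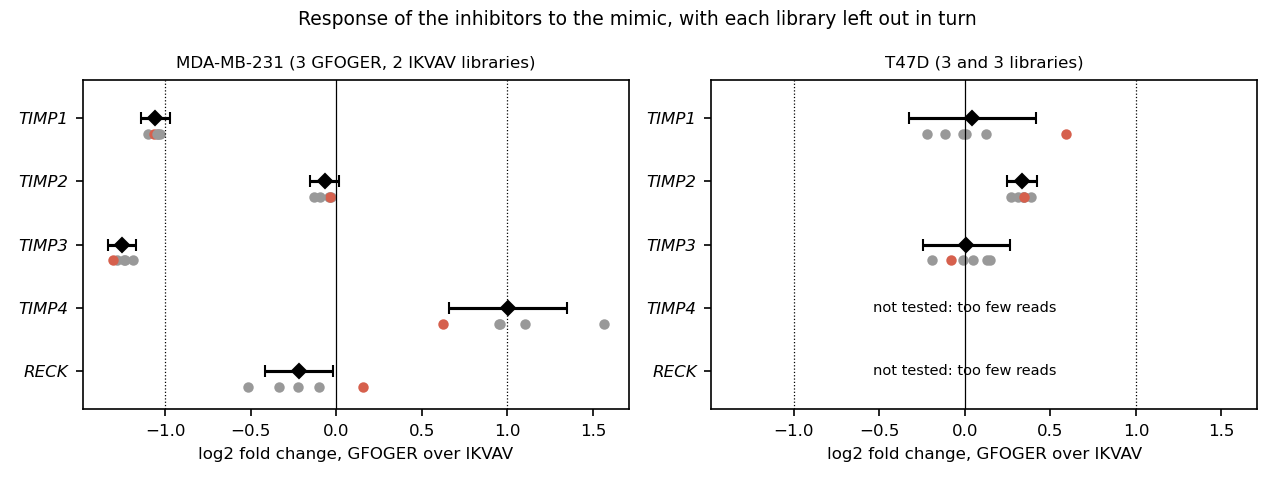
Log2 fold change of each inhibitor, GFOGER over IKVAV, for MDA-MB-231 (left) and T47D (right). Diamonds are the values over all libraries with their standard errors, grey points leave out 1 library in turn, red points leave out MDA-MB-231 IKVAV replicate 1 (left) or T47D IKVAV replicate 3 (right), and dotted lines mark a 2-fold change. TIMP1 and TIMP3 stay near -1.06 and -1.25 in MDA-MB-231 cells whichever library is left out, TIMP4 spreads from 0.62 to 1.56, and TIMP1 in T47D cells moves from 0.04 to 0.59 at the red point.

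Whether the inhibitors responded differently in the 2 cell lines was tested with an interaction term in a fit of all 4 conditions. It passed for TIMP3 alone among the 5 inhibitors, where it passed for 6.39% of the 15310 genes tested. The response of TIMP3 was lower in the MDA-MB-231 line than in the T47D line by 1.26 on the log2 scale (interaction -1.26, SE 0.205, adjusted p = 0.000242). For TIMP1 the difference was of similar size, -1.09, with a larger error (SE 0.408, adjusted p = 0.0898). Without T47D IKVAV replicate 3 it was -1.64 (adjusted p = 1.12e-07), but the mimic in T47D cells then coincided with the division by implied RPKM total. The 2 cannot be told apart there, and the interaction was not fitted with the division as a term. For TIMP2 the difference was -0.39 (SE 0.120, adjusted p = 0.0245), under the 2-fold threshold, and by the adjusted p alone 21% of all genes passed. TIMP4 and RECK had too few reads in T47D cells for this test to say anything about them (SE 2.06 and 1.27).

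All 5 inhibitors were more abundant in the MDA-MB-231 line than in the T47D line. Of the 15310 genes tested between the cell lines 46.3% were differentially expressed, 23.7% higher in the MDA-MB-231 line, and 46.9% with GFOGER alone and 45.9% with IKVAV alone. TIMP4 and RECK passed the filter on low counts only through the MDA-MB-231 libraries and so had to differ, which leaves TIMP1, TIMP2 and TIMP3 as the members for which the test could have gone either way.

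TIMP3 differed the most of these 3. Its lowest MDA-MB-231 library was at 588 cpm and its highest T47D library at 3.19 cpm, and its log2 fold change averaged over the mimics was 8.53 (SE 0.0929, adjusted p = 9.22e-24), larger than that of all but 2.19% of genes. With GFOGER it was 7.90 and with IKVAV 9.15. TIMP1 had a log2 fold change of 4.77 (SE 0.221, adjusted p = 5.20e-09), 4.23 with GFOGER and 5.32 with IKVAV, and its lowest MDA-MB-231 library, at 493 cpm, was far above its highest T47D library, at 43.0 cpm. TIMP2 differed least, by 3.58 (SE 0.0638, adjusted p = 4.15e-21), with 3.38 for GFOGER and 3.77 for IKVAV.

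For the 2 members with hardly any reads in T47D cells, the ratio of summed counts scaled to the TMM-normalized library sizes is given with a 95% interval that covers counting error only. TIMP4 had 148 counts in the MDA-MB-231 libraries with GFOGER and 0 in the T47D libraries, at least 49.2-fold higher when 3 counts over the group are taken as the floor. With IKVAV it had 46 counts against 1, a ratio of 69.0 (interval 11.8 to 2782). RECK had 549 counts against 1 with GFOGER, a ratio of 547 (97.8 to 21656), and 396 against 4 with IKVAV, a ratio of 148 (57.5 to 547). The intervals of the mimics overlap for RECK.

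Over the 4 conditions, the order of levels differed from gene to gene. TIMP1 and TIMP3 were highest in the MDA-MB-231 line with IKVAV, then in the same line with GFOGER, and lowest in T47D cells, where the mimics overlapped. TIMP4 was highest in MDA-MB-231 cells with GFOGER. For TIMP2 and RECK the mimics overlapped in the MDA-MB-231 line. In the T47D line TIMP2 was at 115 ± 9.67 cpm with GFOGER and at 91.0 ± 2.69 cpm with IKVAV (SD, n = 3 each), a difference that did not pass the test.

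Levels per length rest on the deposited gene length, and comparisons of genes close in level depend on it. This length exceeds the canonical exon bases for TIMP1 (916 against 769), TIMP3 (5486 against 4597) and TIMP4 (1633 against 1194). For TIMP2 (3655 against 3652) and RECK (4412 in both) it hardly differs. Per deposited length, TIMP1 was the most abundant inhibitor in MDA-MB-231 cells. With GFOGER it was at 559 ± 31.5 RPKM, followed by TIMP2 at 326 ± 26.7, TIMP3 at 111 ± 4.77, RECK at 2.44 ± 0.375 and TIMP4 at 1.77 ± 0.206 RPKM (SD, n = 3). With IKVAV the levels were 1155 ± 8.07 RPKM for TIMP1, 340.1 ± 9.96 for TIMP2, 263 ± 14.6 for TIMP3, 2.83 ± 0.925 for RECK and 0.87 ± 0.389 for TIMP4 (SD, n = 2). In both conditions TIMP1 lay above TIMP2 and TIMP2 above TIMP3 by more than the spread of the libraries. In T47D cells TIMP1 and TIMP2 were at about the same level per length, 29.8 ± 2.99 and 31.4 ± 2.65 RPKM with GFOGER and 28.9 ± 15.8 and 24.9 ± 0.736 RPKM with IKVAV, and TIMP3 was at 0.462 ± 0.109 and 0.460 ± 0.0679 RPKM (SD, n = 3).

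The summed level of the 4 TIMP genes was 998 ± 62.4 RPKM for GFOGER (SD, n = 3) and 1758 ± 13.1 RPKM for IKVAV (SD, n = 2) in the MDA-MB-231 line. It was 61.7 ± 5.34 and 54.2 ± 16.2 RPKM (SD, n = 3) in the T47D line. The make-up of the sum shifted along with it in MDA-MB-231 cells: TIMP1 held 55.6% to 56.6% with GFOGER and 65.7% in both IKVAV libraries, TIMP2 held 32.1% to 33.4% and 18.8% to 19.8%, and TIMP3 held 10.9% to 11.3% and 14.4% to 15.4%. These shares are parts of the same sum, so they do not move independently. TIMP2 itself was at 326 RPKM with GFOGER and 340 RPKM with IKVAV. In T47D cells the shares were split between TIMP1 and TIMP2, 48.3% ± 1.31 and 50.9% ± 1.21 with GFOGER (SD, n = 3), and IKVAV replicate 3 stood apart with 64.6% TIMP1 against 46.1% and 41.7% in the other IKVAV replicates. TIMP3 made up 0.551% to 1.27% of the sum in T47D cells. The shares were not tested, since each follows from the levels already given.

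**Figure D3:**
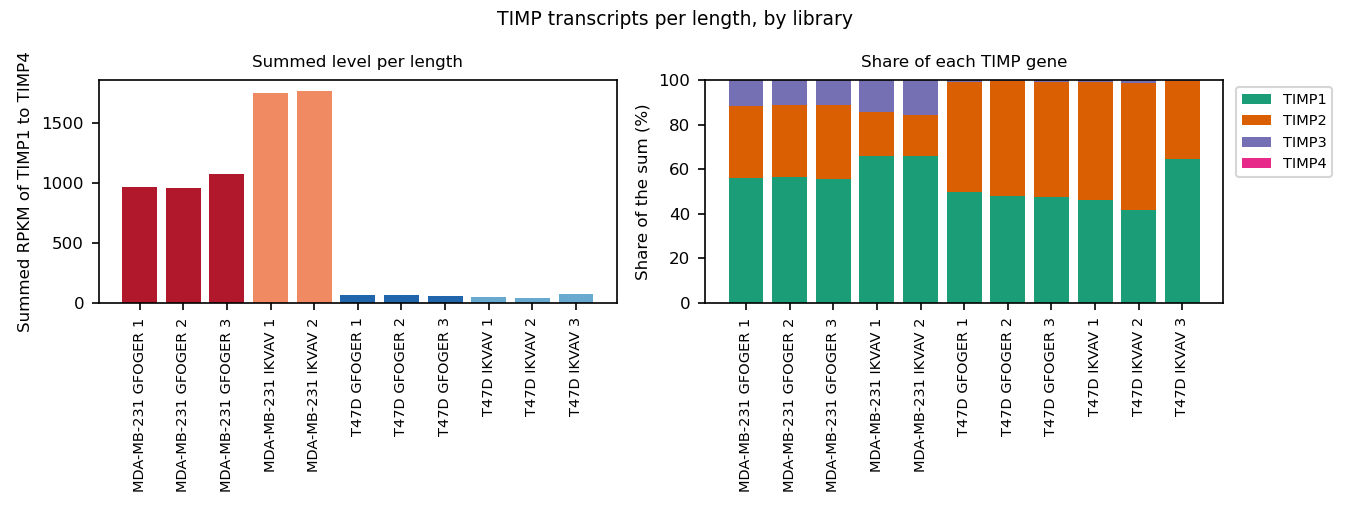
Summed RPKM of TIMP1, TIMP2, TIMP3 and TIMP4 in each library (left, bars from 0) and the percentage of that sum held by each gene (right). The sum averages 998 RPKM for MDA-MB-231 GFOGER libraries, 1758 for MDA-MB-231 IKVAV libraries and 61.7 and 54.2 in T47D cells. The TIMP2 share falls from 32.7% to 19.3% between the MDA-MB-231 conditions, while TIMP2 itself is at 326 and 340 RPKM.

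The proteases that these inhibitors act on were followed from lists of matrix metalloproteinases (MMP), active ADAM proteases and ADAMTS proteases, together with binding partners of the inhibitors. In MDA-MB-231 cells, 6 of the 13 MMP genes tested (of 23 in the table) were differentially expressed, 3 higher and 3 lower with GFOGER, where 9.57% of all genes tested were, 3.12% higher and 6.45% lower. MMP3, a stromelysin with a broad range of substrates, had a log2 fold change of 4.04 (SE 0.207, adjusted p = 4.32e-10), MMP1, the interstitial collagenase, 2.44 (SE 0.106, adjusted p = 5.06e-11), and MMP9, a gelatinase, 1.11 (SE 0.219, adjusted p = 0.000696). MMP1 was the most abundant of them by far, at 3780.3 ± 386 cpm (SD, n = 3) in GFOGER matrices against 692 ± 45.5 cpm (SD, n = 2) in IKVAV matrices. Lower with GFOGER were MMP17, a membrane-anchored enzyme, at -1.58 and MMP13, a collagenase, at -1.46. The gelatinase MMP2 was at -1.82, but it had 2 to 5 counts with GFOGER and 11 to 16 with IKVAV and reached the test only through the IKVAV libraries, so its direction was fixed by the filter on low counts. The median log2 fold change of the MMP genes tested was -0.53, against 0.00387 for all genes tested. This median and the count of 3 lower genes include MMP2, so neither is read as a shift of the list.

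Of the ADAM proteases 1 of 8 tested (of 12) was differentially expressed, ADAM28, which was lower with GFOGER (log2 fold change -1.75). ADAM10 and ADAM17, the main sheddases, had values of 0.01 and 0.42 (adjusted p = 0.970 and 0.00520), both under the 2-fold threshold. Of the ADAMTS proteases 5 of 11 tested (of 19) were differentially expressed, against the same 9.57% of all genes. ADAMTS1 (2.55), ADAMTS6 (1.51) and ADAMTS16 (1.16) were higher with GFOGER, and ADAMTS14 (-2.55), which processes procollagen, and ADAMTS7 (-1.34) were lower. Among 8 binding partners tested (of 9), EFEMP1, a matrix protein bound by TIMP3, was higher with GFOGER (1.46, adjusted p = 4.55e-07), in the opposite direction to TIMP3. CD63, the tetraspanin that binds TIMP1 at the cell surface, had a value of -0.37 (adjusted p = 0.00235). LRP1, the receptor that clears TIMPs, had a value of -0.48 (adjusted p = 0.00133). KDR, the VEGF receptor that TIMP3 binds, had a value of 0.96 (adjusted p = 0.000125) and the ligand WNT7B 0.52 (adjusted p = 0.00913). CD63, LRP1, KDR and WNT7B were each under the 2-fold threshold. The partners ITGB1 (0.06), ITGA3 (0.18) and GPR124 (-1.35) did not pass edgeR's quasi-likelihood test (adjusted p = 0.629, 0.164 and 0.127). By the adjusted p alone, 42.7% of all genes tested in MDA-MB-231 cells passed. In T47D cells 0 genes of the 4 lists were differentially expressed by edgeR's quasi-likelihood test, out of 8 MMP, 5 ADAM, 9 ADAMTS and 7 partner genes tested. At an unadjusted p below 0.05 there were 1, 0, 2 and 1, where 11.2% of all genes tested in T47D cells passed.

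**Figure D4:**
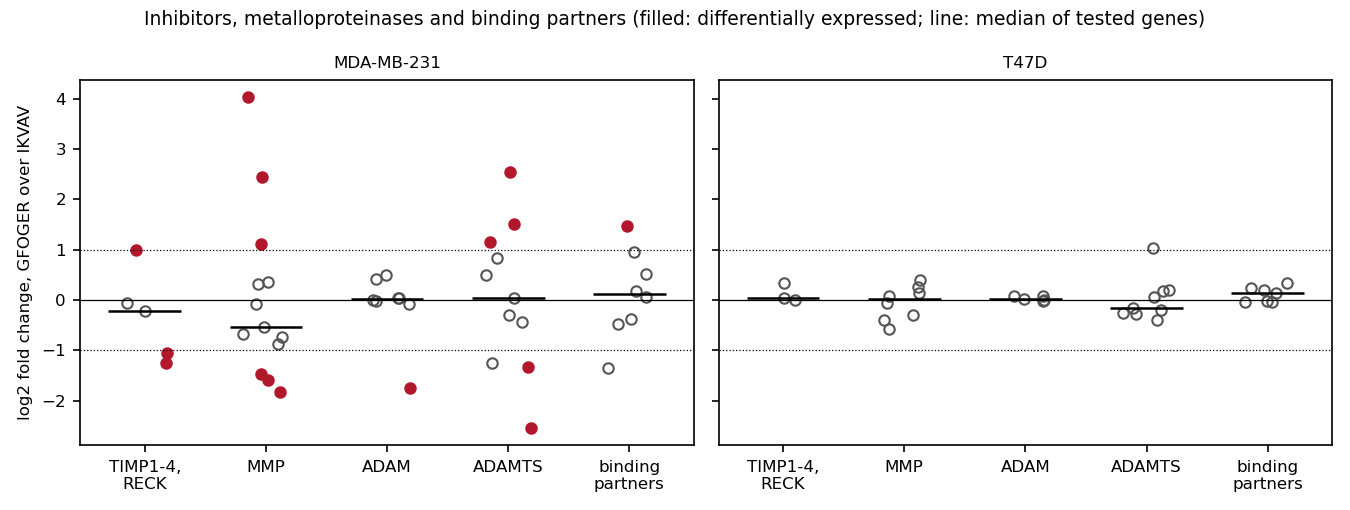
Log2 fold change, GFOGER over IKVAV, of each tested gene of the inhibitors and of the MMP, ADAM, ADAMTS and binding partner lists, in MDA-MB-231 cells (left) and T47D cells (right). Filled points are differentially expressed, lines are list medians and dotted lines mark a 2-fold change. In MDA-MB-231 cells filled points lie on both sides of 0 for the inhibitors (1 above, 2 below), the MMP genes (3 and 3) and the ADAMTS genes (3 and 2). The MMP points below 0 include MMP2, whose direction was fixed by the filter on low counts. In T47D cells there are 0 filled points.

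Among the other lists, the interaction passed for 3 of 13 MMP genes (MMP3, MMP1 and MMP17), 0 of 8 ADAM genes (1 at an unadjusted p below 0.05), 3 of 15 ADAMTS genes (ADAMTS1, ADAMTS6 and ADAMTS7) and 1 of 8 partners, EFEMP1, where 6.39% of all genes tested passed. MMP3 had 0 to 2 counts per library in T47D cells, so its interaction (SE 2.12) says no more than those of TIMP4 and RECK, and ADAMTS1 had 3 to 21 counts there. The interaction of MMP1 was 2.51 (SE 0.175, adjusted p = 9.58e-09), opposite in sign to that of TIMP3. Between the cell lines many of the listed proteases passed the filter on low counts only through the line in which they were high, so the calls are not counted here. MMP14, the membrane-type enzyme that TIMP2 and RECK inhibit, had 23 to 40 counts per T47D library and was higher in the MDA-MB-231 line by 9.18 on the log2 scale (adjusted p = 2.71e-22). ADAMTS4, an aggrecanase, had 0 counts in every MDA-MB-231 library, 43 to 52 per T47D library with GFOGER and 20 to 23 with IKVAV.

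Levels of an inhibitor and of a protease it binds were set side by side within each library as the log2 ratio of their RPKM values, with no test. For TIMP1 and MMP1 the ratio was -1.85, -1.85 and -1.45 in the GFOGER libraries of the MDA-MB-231 line and 1.84 and 1.72 in its IKVAV libraries. MMP1 transcripts per length thus exceeded those of TIMP1 in every GFOGER library and were below them in every IKVAV library. In T47D cells, where MMP1 had 89 to 118 counts, the ratio was 3.01 to 3.58 with GFOGER and 2.48 to 4.19 with IKVAV. For TIMP2 and MMP14 it lay close to 0 in MDA-MB-231 cells, at -0.26 to 0.08 with GFOGER and 0.32 to 0.42 with IKVAV, and was 5.76 to 6.33 and 5.05 to 5.86 in T47D cells, where MMP14 had 23 to 40 counts per library.

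For TIMP3 and ADAM17, the sheddase of tumor necrosis factor, the ratio was 1.86 to 2.21 in the GFOGER libraries of the MDA-MB-231 line and 3.67 and 3.68 in its IKVAV libraries. In T47D cells it was -4.33 to -3.84 and -4.24 to -3.86, so that ADAM17 transcripts per length outnumbered those of TIMP3. The ratio of TIMP3 to ADAM10 followed the same order, with means of 0.57 and 1.83 in the MDA-MB-231 line and -6.28 and -6.30 in the T47D line. TIMP1 to MMP9 had mean ratios of 6.98 with GFOGER and 9.18 with IKVAV in the MDA-MB-231 line. In the T47D line it was 7.52 with GFOGER, on only 4 to 11 MMP9 counts per library. With IKVAV the T47D libraries had 2 to 3 MMP9 counts and no value. RECK was far below its targets in MDA-MB-231 cells, with mean ratios to MMP14 of -7.12 and -6.58 and to ADAM10 of -4.95 and -4.75. TIMP2 to MMP2 was 10.4 to 12.2 on few MMP2 reads, and TIMP3 to ADAMTS5 had no value because a gene of the pair had 3 counts or fewer.

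**Figure D5:**
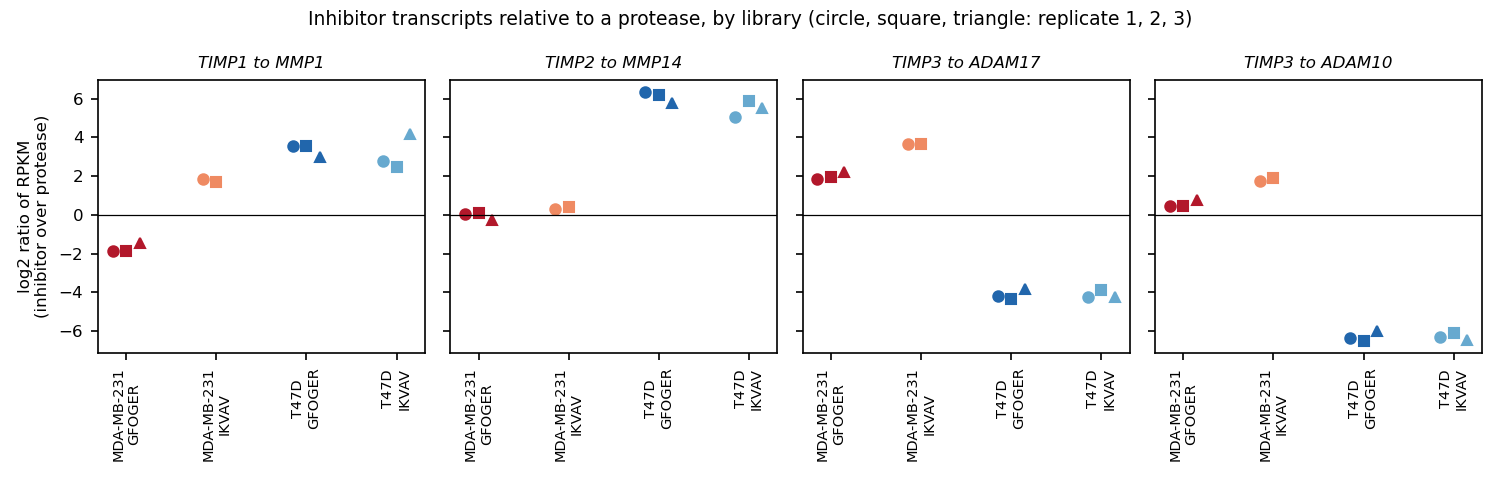
Log2 ratio of RPKM of an inhibitor over a protease in each library, for TIMP1 to MMP1, TIMP2 to MMP14, TIMP3 to ADAM17 and TIMP3 to ADAM10, with circles, squares and triangles for replicates 1, 2 and 3 and a line at 0 where both are equal per length. The TIMP1 to MMP1 points of MDA-MB-231 cells lie below 0 with GFOGER (mean -1.72) and above 0 with IKVAV (mean 1.78), and both TIMP3 panels lie above 0 for MDA-MB-231 and below 0 for T47D.

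The genes whose levels ran most like each inhibitor were taken by Pearson's r of log2 cpm over the 11 libraries. Since the cell line sets most of the spread in these libraries, many genes have a high r, and the values are a description. TIMP1 was followed most closely by SHH (r = 0.997), CST4 (0.996) and NET1 (0.996), with 78 genes above 0.99. TIMP2 ran with HPCAL1, CREB3L1 and RASA3 (r = 0.999 each, 590 genes above 0.99), and TIMP3 with KLF12, EDNRA and KLHL5 (r = 0.999 each, 544 genes above 0.99). TIMP4 ran with RFK, LAMA1 and PRDM4 (r = 0.997, 0.997 and 0.996). RECK ran with LAYN, RIN2 and IL6 (r = 0.997 each), yet within the 5 MDA-MB-231 libraries these 3 had r of -0.17, -0.22 and -0.25 with RECK. TIMP1 and its closest genes also ran together within the 5 MDA-MB-231 libraries (r = 0.95 for SHH, 1.00 for CST4 and 0.97 for NET1), as did TIMP3 and KLF12 (r = 0.98), where the mimics set most of the spread.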

How the data were processed

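Read counts and RPKM values per gene were deposited by the authors for RNA from cells in 3D matrices on day 3. According to the submitters' processing notes, reads were handled with FastQC, Trim Galore 0.4.4, TopHat2 2.1.0, bedtools 2.17, SAMtools 1.4, HTSeq 0.6.1p1 and edgeR 3.16.5 on hg19. The counts deposited by the authors are whole reads per gene without normalization, and the RPKM deposited by the authors served only to read the library total behind each. The strand setting and the gene annotation of the counting are not given in the sources used here. Of 24656 entries, 1288 that repeat a symbol were left out, which left 23368 genes in 11 of 12 samples.

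Counts were analysed in R 4.3.3 with edgeR 4.0.16 (TMM, filterByExpr, robust dispersions, glmQLFit and glmQLFTest), with Benjamini-Hochberg adjustment over all genes tested, and DESeq2 1.42.0 as an alternative. The mimic was tested in a separate fit per cell line, and cell line and interaction in a fit of all conditions. RPKM in the text were computed from the counts, TMM library sizes and the deposited gene length. Totals of 14337035 to 18449108 reads set the precision, and intervals and limits cover counting error only. The labels do not say that replicates are separate cultures, so p-values measure the spread between these libraries. The squared differences between pairs of replicates were 2.51 to 18.6 times those of sampling noise (chi-square per degree of freedom). Replicate numbers did not pair the libraries (correlations of their deviations -0.185 to 0.0425). On simulated counts, 200 of 200 genes given a 4-fold change were recovered among 13885 genes for MDA-MB-231 cells, with 1 false call. For the interaction 198 of 200 were recovered, with 3 false calls. Each simulated gene had the same mean level in both cell lines apart from the given change. The inhibitors differ widely between the cell lines, so this recovery does not extend to their interactions. The changed genes had an average log2 cpm above 1, and recovery of changes near 2-fold was not tested.

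The members, gene lists, tests and alternatives were chosen with earlier results of these data known. The text names the 5 members, genes that overlap them, genes of the ratio pairs, called list genes at a mean log2 cpm of 0 or more (up to 4 in each direction), and the 3 genes most correlated with each member. MMP2 is also a gene of a ratio pair. CD63, LRP1, KDR, WNT7B, ITGB1, ITGA3, GPR124 and the motifs other than TGACTCA were picked after their values or sequences were seen. Alternatives were DESeq2, upper-quartile factors, library totals without factors, a minimum of 10 counts in every library, no minimum at all, a replicate block, the adjusted p alone, the 2-fold threshold inside the test, all conditions in one fit, the division by implied RPKM total as a term, and leaving out each library. A planned comparison of protein sequences was not run.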

Additional observations from a re-analysis of the deposited data

Results flagged for a closer look

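The response of TIMP3 to the mimic differed between the cell lines by -1.26 on the log2 scale, MDA-MB-231 minus T47D, in a test of the interaction itself (edgeR's quasi-likelihood test, adjusted p = 0.000242). In MDA-MB-231 cells TIMP3 was lower with GFOGER by 1.25 on this scale with no overlap of the 5 libraries, and in T47D cells it had 34 to 56 counts per library and a value of 0.01. The interaction ranged from -1.39 to -1.05 over fits without any 1 library and kept its side of the threshold in all 11 of these fits. With the 2-fold threshold placed inside the test its adjusted p was 0.848.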

How the results depend on the processing

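In MDA-MB-231 cells TIMP3 kept its direction and its side of the threshold in 15 of 15 alternatives (-1.31 to -1.19) and TIMP1 in 14 of 15 (-1.10 to -1.03). TIMP4 lost its call in 8 of 15, with values of 0.62 to 1.56. The count of inhibitors called there was 3. It was 2, without TIMP4, with upper-quartile factors, library totals without factors, at least 10 counts in every library and the implied RPKM total as a term, and without GFOGER replicate 1, GFOGER replicate 2 or IKVAV replicate 1, and it was 1 with the 2-fold threshold inside the test, which by construction asks for more than 2-fold. Between the cell lines 5 became 3, over the mimics and with GFOGER or IKVAV alone, with at least 10 counts in every library, since TIMP4 and RECK then leave the test. The interaction count of 1 became 2 with at least 10 counts in every library, with the replicate block and with the adjusted p alone, 0 with the 2-fold threshold inside the test, and 1 to 2 when each library was left out (2 without T47D IKVAV replicate 3). TIMP1 was the added gene in each case but the adjusted p alone, where it was TIMP2. Directions reversed only for values that had not passed: RECK in MDA-MB-231 cells was 0.15 with the division by implied RPKM total as a term and -0.52 to 0.16 when each library was left out, TIMP1 in T47D cells was -0.65 with that term and -0.22 to 0.59, and TIMP3 in T47D cells -0.19 to 0.15; the cause was not tested beyond these left-out libraries. The replicate number as a block left 3 inhibitors called in MDA-MB-231 cells, where 1448 genes were called against 1348 without it, 0 in T47D cells and 5 between the cell lines. The numbers are shared by name only. In the MDA-MB-231 fit replicate number 3 holds a GFOGER library alone, so the block takes that library out of the comparison of the mimics. It is therefore no separate check from leaving that library out: TIMP1 was -1.096 with the block and -1.097 without GFOGER replicate 3. With the block TIMP1 had an interaction of -1.29 (adjusted p = 0.00988). Over all genes, the 1348 calls in MDA-MB-231 cells became 6023 with the adjusted p alone and 403 with the 2-fold threshold inside the test. The 4 calls in T47D cells ranged from 0 to 92, the highest without T47D IKVAV replicate 3. Without that library the mimic coincided with the division by implied RPKM total in the T47D line. Neither these calls nor the TIMP1 interaction without it can be assigned to the mimic alone. Depth limits TIMP4 and RECK in T47D cells, with 0 to 2 counts per library. Of the mean levels, 1 of 20 moved by more than its SD when scaled by total count, TIMP1 in MDA-MB-231 cells with IKVAV, from 1058 to 1038 cpm.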
